A study of Mus musculus with 2 samples.

Results

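The cells described here are a small set of lymphocyte-gated cells of normal mouse mammary gland, selected by the transcripts of Rora, Tnfrsf4 and Il2rb. A cell was selected when these 3 genes together gave at least 2 UMIs (unique molecular identifiers, each 1 counted RNA molecule). It also had to have no UMI of the B-cell gene Cd79a, none of the macrophage genes Csf1r, C1qa, C1qb and C1qc, and at most 3 of Lyz2. Of 1806 cells of this library in the deposited table (2806 cells with the tumor library), 162 met the rule, a share of 8.97% (95% exact binomial interval 7.69 to 10.4). Among them, 127 (78.4%, 71.3 to 84.5) had at least 1 UMI of Cd3e, Cd3d or Cd3g and are called Cd3-positive, and 35 (21.6%, 15.5 to 28.7) had none and are called Cd3-free. The comparison cells are 340 other T cells of the same library, with a Cd3 UMI, no UMI of the 3 selecting genes and the same upper limits.

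The library came from 8-week-old female C57BL6/J mice of genotype Cdh5Cre-ERT2:ZSGreenl/s/l. In these mice tamoxifen switches on the green protein ZSGreen through the endothelial Cdh5 promoter, so both libraries carry the allele and the drug. Mice had received EO771 mammary tumor cells in the fat pad about 3 weeks earlier, and the sort kept live cells with ZSGreen, both from normal counterpart glands (labelled normal endothelial cells) and from tumors (labelled tumor endothelial cells). Libraries were made with the 10x Genomics single cell 3′ kit. There was 1 library per group, the labels do not say how many animals it pooled, and no difference below has a replicate check or a p-value. All intervals are 95% intervals of counting error, which do not cover differences between animals.

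On build GRCm38.p6 of RefSeq, the selecting genes lie at chr9:68653404-69388246 (Rora), chr4:156013595-156016613 (Tnfrsf4) and chr15:78479256-78511621 (Il2rb). Rora encodes a nuclear receptor needed for group 2 innate lymphoid cells and used by effector and type 17 T cells. Tnfrsf4 encodes OX40, a costimulatory receptor of activated and regulatory T cells, and Il2rb encodes a chain of the interleukin-2 and interleukin-15 receptors that memory CD8 T cells and natural killer (NK) cells carry. Innate lymphoid cells lack the T-cell receptor and its CD3 chains; in barrier tissues and fat the type 2 kind makes interleukin-5 and interleukin-13 and answers interleukin-33 through its receptor, encoded by Il1rl1. The peptide CGRP, encoded by Calca, is a neuropeptide that acts on such cells through a receptor with the subunit Ramp1.

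The selected cells were not endothelial by their transcripts, although the described sort kept cells with ZSGreen. How cells were chosen for the deposited table is not given in the sources used here. Over all 127 Cd3-positive cells the 8 endothelial marker genes gave 19 UMIs, with at most 2 in a cell, and Cdh5, Kdr, Emcn and Esam were at 0. Pecam1, which T cells also express, gave 14 of these UMIs. Ptprc, the leukocyte antigen CD45, was present in 82 of the 127 cells. Median depth was 3236 UMIs in the Cd3-positive cells, 2669 in the Cd3-free cells and 2596 in the other T cells. A rule that asks for 2 UMIs favours deep cells, and its part in the differences below was not tested beyond the thinned values. In all, 2 cell barcodes occurred in both libraries, 1 of them in a Cd3-positive cell. The deposited table does not include receptor constant-region genes, Il13 or Il4, which are not analysed here.

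The Cd3-free cells were a mixture and not a population of innate lymphoid cells. Of the 35, 13 (37.1%, 21.5 to 55.1) held at least 3 UMIs of the epithelial, the fibroblast or the dendritic marker list, the last counted without the class II gene H2-Aa. The limit of 3 UMIs was set after the cells had been seen. In 5 cells the epithelial list (keratins Krt8 and Krt18, casein Csn3 and others) gave 36 to 325 UMIs. In 5 others the fibroblast list (the matrix gene Dcn and collagens) gave 23 to 72 UMIs, and in 3 the dendritic list without H2-Aa gave 3, 9 and 34. The chemokine gene Ccl22 gave 27 of the 34. The 10 epithelial and fibroblast cells held 1 UMI of the pan-leukocyte list between them. None of the 127 Cd3-positive cells reached 3 UMIs of any of these lists, and 4 of the 340 other T cells did. The 13 cells passed through Rora or Tnfrsf4, each with exactly 2 UMIs of the selecting genes.

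**Figure D1:**
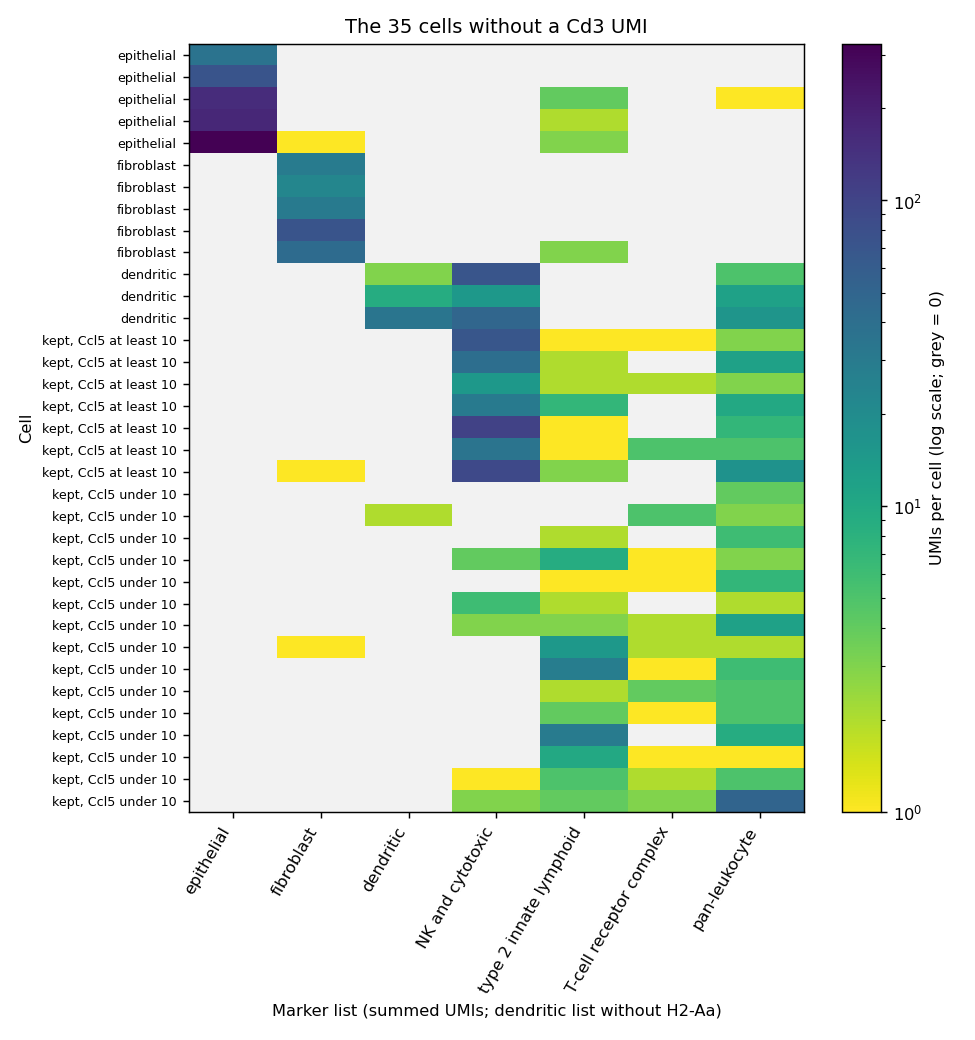
Summed UMIs of 7 marker lists (columns) in each of the 35 Cd3-free cells (rows, by group), on a log color scale with grey for 0. The top 13 rows hold epithelial, fibroblast or dendritic UMIs, the next 7 hold cytotoxic genes led by Ccl5, and the other 15 hold few lineage UMIs apart from some with type 2 genes.

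Of the 22 Cd3-free cells that were left, 7 held 10 or more UMIs of Ccl5, a chemokine gene of cytotoxic lymphocytes. In these 7 cells Ccl5 ranged from 10 to 81 UMIs. The granule protease gene Gzma was present in 4 of them, the granule protein gene Nkg7 in 6, and the signaling adaptor genes Fcer1g and Tyrobp in 5 each. These are genes that NK cells express, but the NK receptor gene Ncr1 and the perforin gene Prf1 were at 0 in all 162 selected cells. The limit of 10 UMIs was set after the values had been seen.

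The other 15 of these 22 cells had Id2, a transcription factor gene shared by innate lymphoid cells, in 12 cells, S100a4 in 13 and Cxcr6, a chemokine receptor of tissue-resident lymphocytes, in 8. The type 2 innate lymphoid list gave the most UMIs, 28 and 29, in 2 of them, and 15 or fewer in each other cell. The first had 8 Gata3 (the master transcription factor of type 2 lymphocytes), 2 Il1rl1, 6 Areg, 31 Id2, 3 Calca and 1 Il5 UMIs. The second had 3 Gata3, 1 Il1rl1, 4 Areg and 13 Arg1 UMIs and neither Il5 nor Calca. Kit, a receptor gene of several innate lymphoid kinds, was present in 4 of the 22 cells, with 1 or 2 UMIs each, and in none of the 127 Cd3-positive cells. It was also present in 2 of the 5 epithelial cells, with 3 and 1 UMIs, so it was not confined to lymphoid cells.

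A cell without a Cd3 UMI can be a T cell whose Cd3 RNA was not captured. The 3 Cd3 genes stood at 1593 CPM (counts per 1000000 summed UMIs) in the Cd3-positive cells, which amounts to 4.25 UMIs at the median depth of the Cd3-free cells and 3.63 at the median depth of the 22. Since Cd3-positive cells were chosen for having a UMI, this level is an upper guide. Among the 22 cells the adaptor gene Lat of the T-cell receptor pathway was present in 8 and the costimulatory receptor gene Cd28 in 4. In the Cd3-positive cells, by comparison, 89 of 127 had Lat and 70 had Cd28.

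Il5, the eosinophil growth factor gene, was found in 5 of the 1806 cells, and all 5 were selected cells. The Il5 UMIs were 13, 8, 6 and 3 in 4 Cd3-positive cells and 1 in the Cd3-free cell described above. The 4 Cd3-positive cells held 5, 4, 3 and 17 Cd3 UMIs in that order, so 30 of the 31 Il5 UMIs lay in cells with Cd3 RNA. Their total UMIs of 2589 to 5071 were within the range of all selected cells, 1165 to 18892. That range is too wide to tell a doublet (2 cells under 1 barcode) from a single cell. Scrublet called 3 of the 1806 cells doublets, none of them selected. Whether these 4 cells were doublets was not tested further. None of the 491 B cells (at least 2 Cd79a UMIs, median 1802 UMIs) had an Il5 UMI; 3 counts among them would be a share of 0.611% of cells with a UMI.

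All 5 Il5-positive cells also held Il1rl1, Gata3, Areg, Cd28 and the transcription factor gene Bhlhe40. Il1rl1 gave 1, 3, 2, 1 and 2 UMIs in them, in the order of the Il5 counts above. Gata3 gave 2, 3, 3, 2 and 8 UMIs, and Areg, which encodes the tissue-repair growth factor amphiregulin, gave 3, 7, 1, 6 and 6. Hlf, a transcription factor gene, was present in the 4 Cd3-positive cells and absent from the Cd3-free cell, as was Lat. In the other selected cells Il1rl1 was rare: 7 further Cd3-positive cells had it without Il5, and Ikzf2 stood at 847 CPM (18 UMIs) in these 7, with Foxp3 in 2 of them. A Cd3-free cell with 33 Dcn UMIs also held 1 Il1rl1 UMI. Of the 340 other T cells, 1 had an Il1rl1 UMI. Il1rl1 gave 47 UMIs over the 1806 cells and 20 in the selected cells, so it was not confined to them.

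Because Il5 and Il1rl1 occurred in the same cells, their promoters are shown. Each sequence holds the 150 bases before a transcription start, from RefSeq (build GRCm38.p6, plus strand, 5′ to 3′). Capitals mark the motif bound by GATA factors, searched on both strands as AGATAA, as the variant AGATAG, as the variant TGATAA and as the variant TGATAG, where matches may overlap.
Il5, chr11:53720644-53720793: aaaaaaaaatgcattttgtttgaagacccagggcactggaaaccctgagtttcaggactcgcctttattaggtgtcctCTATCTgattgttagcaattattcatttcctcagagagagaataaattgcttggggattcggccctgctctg
Il1rl1, first start, chr1:40429420-40429569: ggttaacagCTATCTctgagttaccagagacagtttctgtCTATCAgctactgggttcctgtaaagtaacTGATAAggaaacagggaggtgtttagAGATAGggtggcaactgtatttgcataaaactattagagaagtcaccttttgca
Il1rl1, second start, chr1:40439479-40439628: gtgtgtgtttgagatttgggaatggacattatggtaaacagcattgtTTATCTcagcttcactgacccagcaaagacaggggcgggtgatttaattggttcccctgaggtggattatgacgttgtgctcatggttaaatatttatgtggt
Within the full 250 bases before the start, Il5 had 1 match and the Il1rl1 starts had 5 and 1. Areg and Gata3, which the same Il5-positive cells held, had 0 matches in that window, and Calca had 1. The motif was thus not shared by all genes found in these cells. Of 32851 promoters in the table, 26.5% had at least 1 match in the same window. A match shows only these letters and not binding.

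Calca was found in 29 of the 1806 cells, of which 13 were selected cells, 8 Cd3-positive and 5 Cd3-free. Il5 was in 5 of the 162 selected cells and in 1 of these 13. Counts this small cannot show whether the Il5 and Calca cells were separate sets. The 8 Cd3-positive cells held 7, 6, 5, 1, 1, 1, 1 and 1 UMIs, and the 5 Cd3-free cells held 4, 3, 2, 2 and 2. In the other T cells 8 of 340 had Calca (2.35%, 1.02 to 4.58), against 8 of 127 Cd3-positive cells (6.30%, with a lower bound of 2.76). In B cells, which served as a measure of free RNA, the share was 0.407%. With cells thinned to 1500 UMIs the shares were 4.80%, 2.05% and 0.489%. The intervals of the Cd3-positive and the other T cells overlap, and the difference was not tested.

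None of the 8 Cd3-positive Calca cells held Il5 or Il1rl1. Il1rl1 was in 11 of the 127 Cd3-positive cells and Il5 in fewer, too few to show a separation. All 8 had at least 2 UMIs of Rora, which is a gene of the selecting rule, while the 5 Cd3-free Calca cells had 1 each. Cxcr6 was present in 7 of them, and Ramp3, a receptor subunit gene, in 7, at 2235 CPM against 590 in all Cd3-positive cells. Tmem176a, a gene picked outside the lists, stood at 523 CPM in the 8 cells (11 UMIs in 3 cells) against 38.8 in all 127. The 127 include cells with fewer Rora UMIs. Whether Cxcr6, Ramp3 and Tmem176a differ from other cells with at least 2 Rora UMIs was not tested. Among the 1806 cells 1 had both Il5 and Calca, the Cd3-free cell with 8 Gata3 UMIs.

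**Figure D2:**
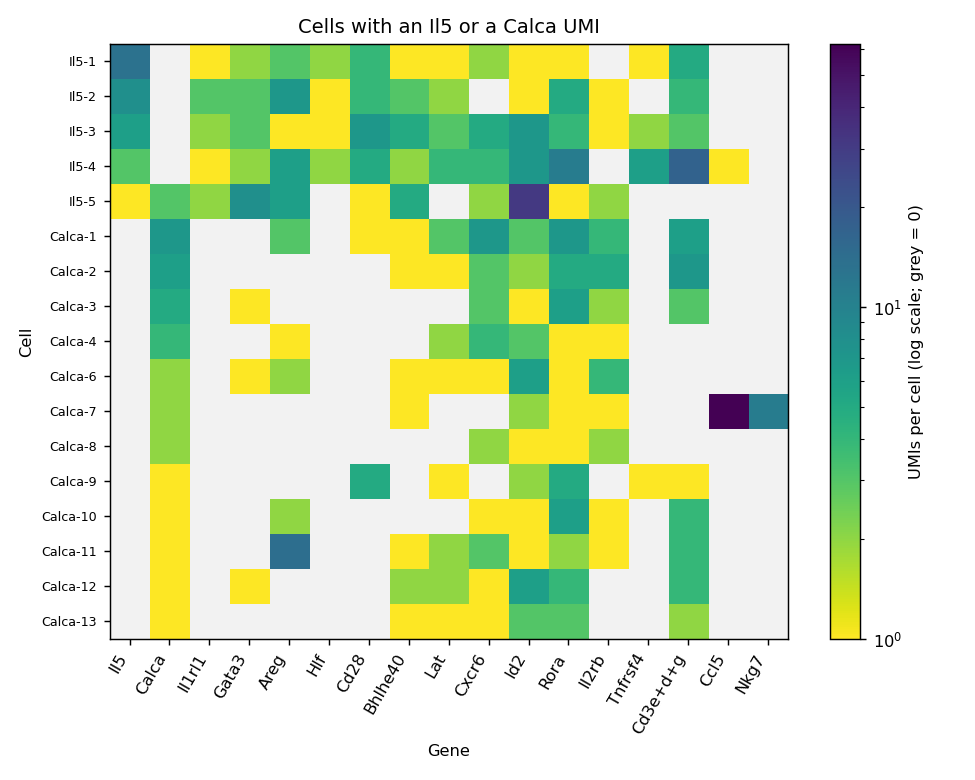
UMIs of 17 genes (columns) in each selected cell with an Il5 or a Calca UMI (rows, by falling count), on a log color scale with grey for 0; the cell with both is shown once, as the fifth Il5 cell. Il1rl1, Gata3 and Areg fill the 5 Il5 rows, while Il1rl1 is at 0 in all Calca rows below them.

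Subset genes were each found in a minority of the selected cells. Any UMI of Il5 or Calca was found in 12 Cd3-positive cells (9.45%) and 5 Cd3-free cells. The regulatory gate (Foxp3, the master gene of regulatory T cells) held 7 and 0, and the cytotoxic gate (Gzma, Gzmb, Klrb1c, Prf1 or Ncr1) 22 and 5. Of the cells with Il5 or Calca, 5 were also in the cytotoxic gate. A Cd3-free cell with 2 Calca UMIs had 62 Ccl5 and 11 Nkg7 UMIs. In the other T cells the counts were 8, 1 and 21 of 340. Foxp3 was at 0 in B cells, and the cytotoxic gate held 2 of 491 B cells. The 7 Foxp3-positive cells had Tnfrsf18 in all 7, Ikzf2 in 5 and Ctla4 in 5, genes that regulatory T cells express.

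Set against the other T cells, the Cd3-positive cells carried more RNA of the tissue residency list. A gene counted as higher or lower when its CPM differed at least 2-fold and the counting interval of the ratio excluded 1, among genes with at least 50 UMIs in both groups together. Of 2512 genes, 112 (4.46%) were higher and 54 (2.15%) lower. The 12 genes of the rule were left out. With ratios divided by their median over all genes, 90 were higher and 71 lower.

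Cxcr6 gave 68 UMIs in 27 of 127 Cd3-positive cells (146 CPM, 114 to 186) and 5 UMIs in 4 of 340 other T cells (5.20 CPM), a ratio of 28.2 (11.5 to 89.5). S100a4, a calcium-binding protein gene of memory and effector T cells, was at 439 against 38.5 CPM, and 38.6% against 3.53% of cells had it. In B cells the share was 4.68%, and in cells thinned to 1500 UMIs the first pair was 32.0% and 2.39%. Lgals1, the galectin-1 gene, was 6.78-fold higher (5.44 to 8.51), and S100a6 was 6.71-fold higher. Lgals1 was present in 62 of 127 Cd3-positive and 48 of 340 other T cells, so neither S100a4 nor Lgals1 was shared by all Cd3-positive cells.

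The secreted and costimulatory genes followed. Areg gave 71 UMIs in 21 cells against 9 UMIs in 6 other T cells, a ratio of 16.3 (8.14 to 37.2). Tnfsf11, which encodes RANKL, an osteoclast and mammary differentiation factor, had a ratio of 32.4 (10.4 to 163), but 1 cell held 28 of its 47 UMIs. Tnfrsf9, the gene of the activation receptor 4-1BB, was at 146 against 11.4 CPM, a ratio of 12.8 (6.72 to 26.8). Tnfsf8, a ligand gene of the same superfamily, was 6.61-fold higher (4.21 to 10.7). Furin, a proprotein convertase gene, was 10.0-fold higher (5.98 to 17.7), as were Ikzf2 at 10.4-fold, Bcl2a1d at 10.6-fold and Lmna at 6.38-fold. Ikzf2 encodes the transcription factor Helios, Bcl2a1d a survival protein and Lmna nuclear lamins.

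Counts over the gene lists follow, beside a median log2 ratio of 0.09 over all 2512 genes. Of the tissue residency list, 11 of 12 compared genes were higher and 0 lower (median log2 ratio 2.09). The whole list stood at 6716 CPM in the Cd3-positive cells, 1855 in the other T cells and 2776 in the B cells. In the 5 Cd3-free cells with fibroblast UMIs it stood at 9832 CPM. The list thus does not by itself mark resident lymphocytes. Besides those named, Crip1 was at 2183 against 708 CPM, Rgs1 at 601 against 151 and Cd44, the memory marker, at 133 against 38.5; the early activation gene Cd69 was not called (168 against 180 CPM). Of the type 2 innate lymphoid list, 4 of 5 compared genes were higher: Areg, Gata3 (4.38-fold, 2.70 to 7.28), Icos (2.70-fold) and Lmo4 (2.38-fold). Il5 and Il1rl1 had too few UMIs to be compared. Of the regulatory T list, 4 of 5 compared genes were higher, with Capg, Ctla4, Ikzf2 and Tnfrsf9. Of the NK and cytotoxic list, Gzmb was 2.28-fold higher, Klrd1 2.13-fold lower and 3 of 5 not called, among them Ccl5 at 803 against 801 CPM.

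Of the resting T list, 3 of 14 compared genes were lower, Actn1, Igfbp4 and Dapl1, and 1 was higher, Ramp1, with a median log2 ratio of -0.69. Lef1, a transcription factor gene of naive T cells, was at 267 against 470 CPM, a ratio of 0.57 (0.46 to 0.69) that did not reach 2-fold. Ccr7, the lymph node homing receptor gene, was at 306 against 606 CPM, and Klf2 at 732 against 1094 CPM. S1pr1, the egress receptor gene, was at 243 against 298 CPM with an interval of the ratio of 0.65 to 1.02. Lef1 was found in 58 of the 127 Cd3-positive cells, which goes against calling all of them effector cells.

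The genes named as lower came mostly from a few of the other T cells. The 12 with the lowest upper bound were Ccl2, Cxcl1, Fxyd2, Gsn, Ptn, Dcn, Cxcl2, Tnfaip6, Ptx3, Fn1, Krt18 and Ccl7, and between 77.8% and 97.9% of their UMIs in the other T cells lay in the 4 cells with at least 3 epithelial or fibroblast UMIs. With those 4 cells left out, a step added after the data had been seen, 118 of 2460 genes were higher (4.80%) and 40 lower (1.63%). The genes with the lowest upper bound were then Myb at 32.3 against 105 CPM, Ccr7, Actn1, Igfbp4 and Gm8369. Of the 12 genes named before, 11 had fewer than 50 UMIs and Gsn was not called. Cxcr6 kept a ratio of 27.4 and S100a6 moved to 20.4.

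**Figure D3:**
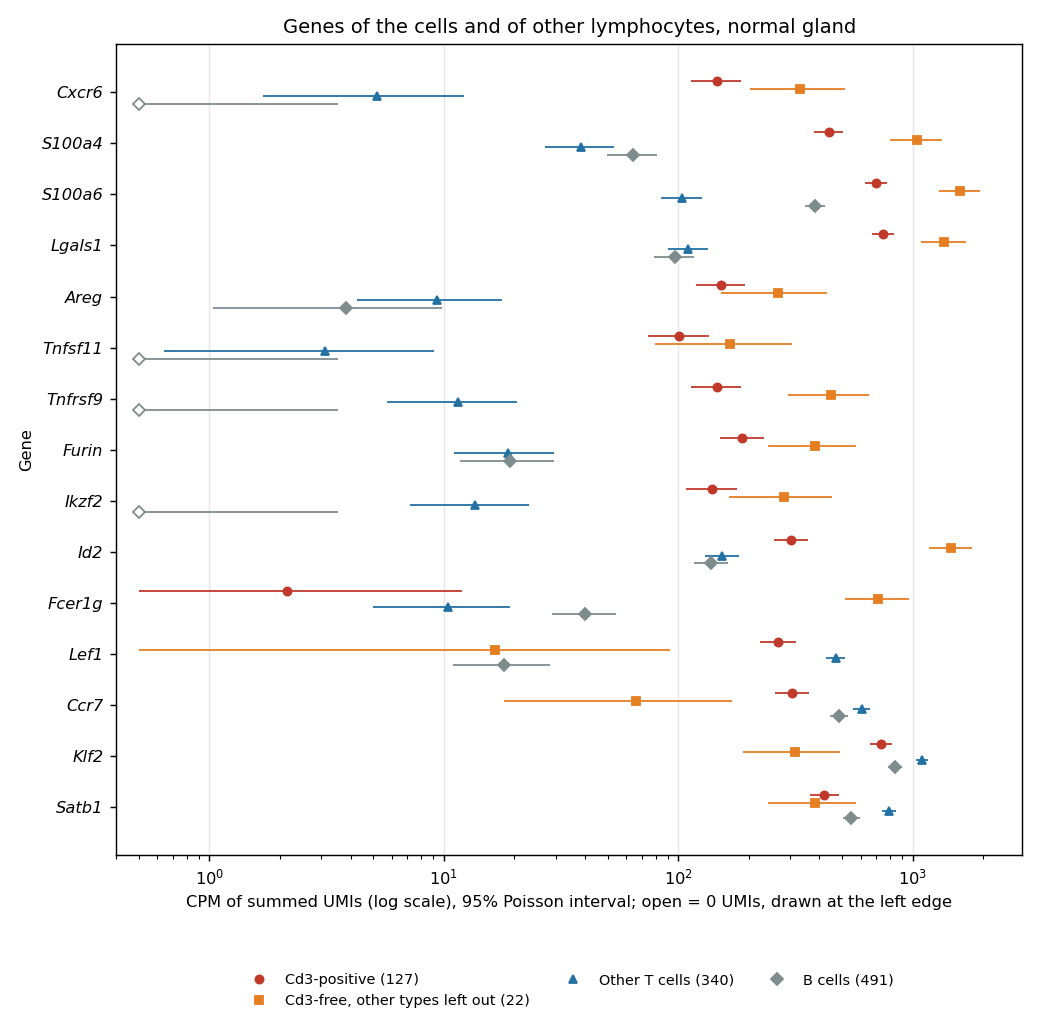
Summed-UMI CPM of 15 genes on a log axis, with 95% Poisson bars, in Cd3-positive cells, Cd3-free cells without those of other types, other T cells and B cells; open symbols mark 0 UMIs and sit at the left edge. From Cxcr6 to Ikzf2 both sets of selected cells lie to the right of the other T cells, and from Lef1 to Satb1 they lie to the left.

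The Cd3-positive cells were not uniform, and their makeup followed the gene that had selected them. The grouping was made after the values had been seen, and is given as a description. A Rora group of 46 cells had at least 2 Rora UMIs, a Tnfrsf4 group of 15 had at least 2 of Tnfrsf4 and fewer of Rora, an Il2rb group of 42 had at least 2 of Il2rb and fewer of both others, and 24 cells reached 2 only by single UMIs of different genes.

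The Rora group carried most of the UMIs of the tissue residency list (1805 of 3119 in the Cd3-positive cells) and of the type 2 innate lymphoid list (328 of 497). Cxcr6 stood at 313 CPM in the Rora group against 37.4 in the Il2rb group, S100a4 at 861 against 118, and Lgals1 at 1481 against 112. Areg was present in 15 of 46 cells of the Rora group and in 2 of 42 of the Il2rb group, Icos in 27 and 12, and Furin in 25 and 4. Il1rl1 was present in 9 cells of the Rora group and in 1 of the Il2rb group. Lef1 stood at 84.3 CPM in the Rora group and Satb1, a chromatin organizer gene of resting T cells, at 175 CPM, below the other T cells with 470 and 791. Cd8a or Cd8b1 was present in 5 of the 46 cells and Cd4 in 7.

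The Il2rb group resembled CD8 T cells, with genes of resting cells as well as of memory and cytotoxic cells. Cd8a or Cd8b1 was present in 29 of its 42 cells (69.0%, 52.9 to 82.4), against 118 of 340 other T cells. Ly6c2, a surface antigen gene of memory CD8 T cells, stood at 374 CPM in the Il2rb group, 127 in the other T cells and 0 in the Rora group. Ccl5 was at 1839 CPM in the Il2rb group, 289 in the Rora group and 801 in the other T cells. The cytotoxic gate held 10 of the 42 cells (23.8%), 9 of 46 in the Rora group and 21 of 340 other T cells (6.18%). The NK and cytotoxic list stood at 2568 CPM in the Il2rb group and 1229 CPM in the other T cells. Klf2 at 991 CPM and S1pr1 at 293 CPM were close to the other T cells with 1094 and 298. Lgals1 was at 112 against 110 CPM. The tissue residency list as a whole stood at 2954 CPM in the Il2rb group (2694 to 3233), 1855 in the other T cells and 10870 in the Rora group.

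The 15 cells of the Tnfrsf4 group held Foxp3 in 4 cells and Lef1 in 10, and the 24 cells with single UMIs held Cd8b1 in 11 and Lef1 in 13. The tissue residency list stood at 8757 CPM in the Tnfrsf4 group (7975 to 9595) against 10870 in the Rora group. In the Tnfrsf4 group 1 cell held 229 of its 460 UMIs, and the median was 9 UMIs per cell against 34 in the Rora group. At the threshold itself, the 61 Cd3-positive cells with exactly 2 UMIs of the selecting genes had Cxcr6 at 28.1 CPM, S100a4 at 108 and Lef1 at 407. The 150 Cd3-positive cells just outside it, with 1 such UMI, had Cxcr6 at 6.28 CPM, S100a4 at 23.0 and Lef1 at 437.

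**Figure D4:**
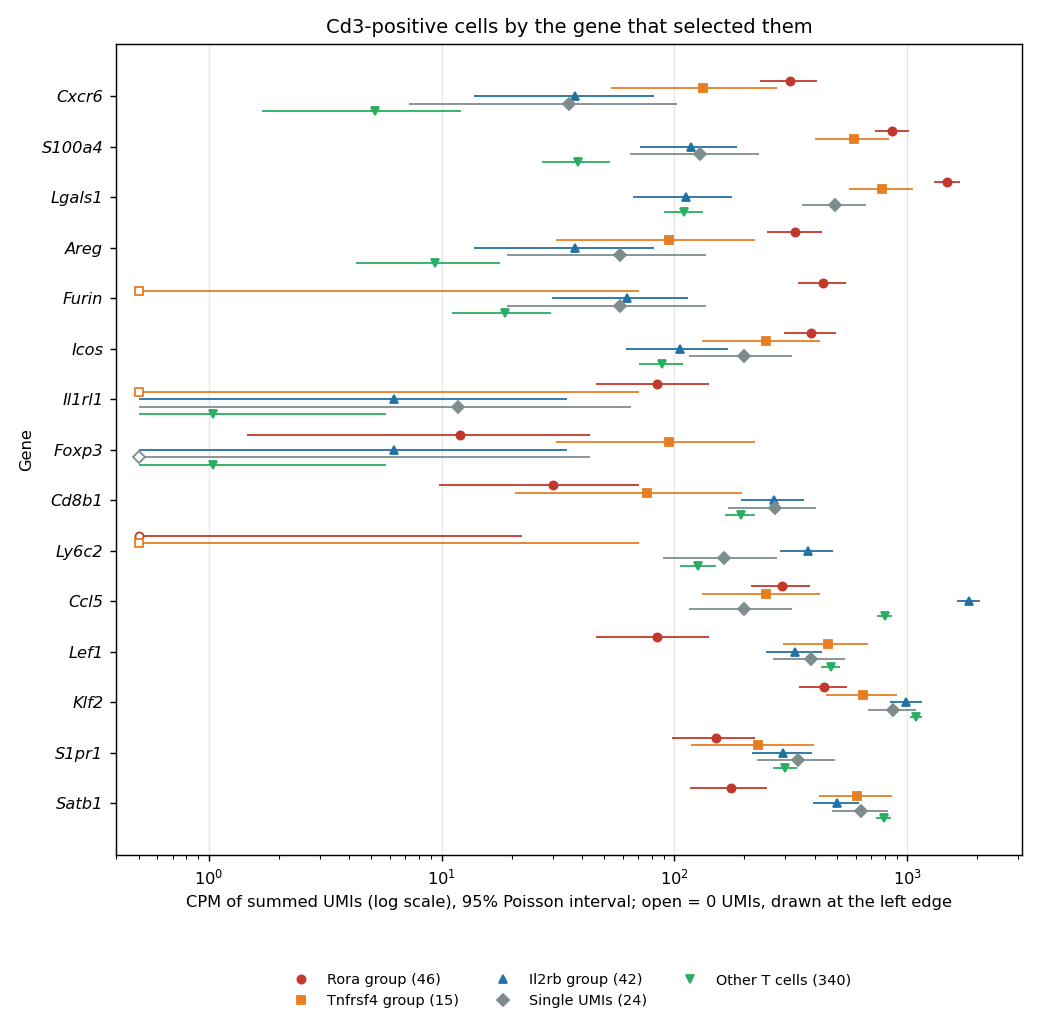
Summed-UMI CPM of 15 genes on a log axis, with 95% Poisson bars, in the 4 groups of Cd3-positive cells by selecting gene and in the 340 other T cells; open symbols mark 0 UMIs and sit at the left edge. The Rora group lies farthest right for Cxcr6, S100a4, Lgals1 and Areg and farthest left for Lef1, Klf2, S1pr1 and Satb1, while the Il2rb group lies farthest right for Ly6c2 and Ccl5.

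Between Cd3-positive and Cd3-free cells, the first difference was set by the epithelial, fibroblast and dendritic cells. Of 1211 genes compared, 119 (9.83%) were higher in the Cd3-positive cells and 151 (12.5%) lower. The log2 ratio of all these genes had a median of 0.13. All 12 named lower genes had at least 98.0% of their Cd3-free UMIs in the 13 cells of other types: Krt8, Csn3, Hspb1, Gsn, Wfdc18, Krt18, Tm4sf1, Dcn, Ltf, Fxyd3, Lcn2 and Cd63. Krt8, for example, gave 1 UMI in the Cd3-positive cells and 322 in 5 Cd3-free cells. The immediate early list (Fos, Jun, Egr1 and others) had 12 of 16 genes lower in the Cd3-positive cells with a median log2 ratio of -1.80. With the 13 cells left out it had 2 of 14 lower and a median of -0.57.

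With the cells of other types left out, 26 of 1053 genes were higher in the Cd3-positive cells (2.47%) and 70 lower (6.65%). Lef1 gave 124 UMIs in 58 Cd3-positive cells and 1 UMI in the 22 Cd3-free cells, a ratio of 16.1 (2.84 to 641). Cd8b1 gave 75 UMIs against 0, a ratio of 3.25 with the 0 set to 3 counts (lower end of the interval 2.58). Cd28 was 3.10-fold higher (1.47 to 7.83) and Lat 2.52-fold (1.34 to 5.34), both parts of T-cell receptor signaling. Ccr7 was 4.61-fold higher, Gimap1 6.49-fold and Ly6c2 9.61-fold. The other genes of the 12 named over all 35 cells were Gm8369, Gtf2i, Limd2, Ifi27l2a, Gimap6 and Cd53; Cd53 no longer reached 2-fold with the 13 cells left out (log2 ratio 0.99).

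In the other direction, Ccl5 was 5.76-fold lower in the Cd3-positive than in the 22 Cd3-free cells (4.91 to 6.74), and 275 of the 279 Cd3-free UMIs lay in the 7 cells that were grouped by this gene. Id2 was 4.80-fold lower (3.64 to 6.31), with 88 UMIs in 19 of the 22 cells and 141 UMIs in 69 of 127. Ramp1, the CGRP receptor subunit gene, was 6.42-fold lower, but 1 Cd3-free cell held 76.0% of the 25 UMIs. Nkg7 was 4.75-fold lower, Gata3 2.66-fold (1.49 to 4.55) and Cxcr6 2.26-fold (1.30 to 3.77). Without the cell richest in the gene, a step added after the data had been seen, Gata3 was 1.61-fold lower (0.76 to 3.11), Cxcr6 1.89-fold and Ramp1 1.84-fold, none reaching 2-fold, while Id2 was 3.26-fold and Nkg7 3.17-fold lower. Of the 29 Nkg7 UMIs, 28 lay in the 7 cells grouped by Ccl5. Of the tissue residency list, 6 of 12 genes were lower in the Cd3-positive cells and 0 higher, with a median log2 ratio of -1.02 beside 0.03 over all genes compared.

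Compared with the other T cells, the Cd3-free cells differed at 284 genes higher (14.1% of 2013) and 208 lower (10.3%), and after the cells of other types were left out of both at 197 higher (11.0% of 1784) and 60 lower (3.36%). Both comparisons share the other T cells with those of the Cd3-positive cells. Over all 35 cells the leading higher genes Csn3, Wfdc18, Ltf, Krt8, Hspb1 and Hspa1a had at least 97.5% of their UMIs in the 13 cells of other types. In the 22 cells Fcer1g led, with 43 UMIs in 11 cells against 10 UMIs in 5 other T cells, a ratio of 66.8 (33.0 to 149). The macrophage and monocyte list holds Fcer1g and Tyrobp, which gave 72 of its 91 UMIs in the 22 cells. Without these genes it stood at 315 CPM (190 to 492) in the 22 cells and 203 CPM (175 to 233) in the 340 other T cells, and its part in this result was not tested. Fcer1g was present in 4.48% of B cells and in 1 of 127 Cd3-positive cells. S100a4 was 26.4-fold higher (17.3 to 40.8), Gzma 23.3-fold (12.8 to 43.3) from 4 cells, and Id2 9.43-fold (7.15 to 12.4). Lef1 was 29.1-fold lower with 1 UMI (5.20 to 1152), Ccr7 9.38-fold lower (3.65 to 34.6), and Cd8b1 and Gimap3 were at 0. Gm8369 and Cd8b1 were at 0 in all 35 cells, and Gimap6 was at 4 UMIs and Pja1 at 0.

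The same rule in the EO771 tumor library gave 38 Cd3-positive and 12 Cd3-free cells, with 10 other T cells. These cells had medians of 8974.5, 9162 and 9446 UMIs, so shares and selection differ with depth and no difference was tested. The macrophage and monocyte list stood at 5238 CPM in the Cd3-positive tumor cells against 237 CPM in the gland. It holds Fcer1g and Tyrobp, which NK cells also express and which were not taken out here. The B-cell list, without these genes, stood at 1911 against 110 CPM, and the dendritic list with H2-Aa at 1901 against 68.9 CPM. The tumor set thus held RNA of several other cell types, and its source was not tested. The NK and cytotoxic list stood at 8542 against 1322 CPM. Gzmb was present in 27 of the 38 tumor cells at 1185 CPM, against 13 of 127 gland cells at 68.9 CPM, and Ccl5 was at 4530 against 803 CPM. Foxp3 was present in 9 tumor cells. Il5, Calca and Il17a, the interleukin-17A gene, were at 0 in both tumor sets, against 64.6, 49.5 and 23.7 CPM in the Cd3-positive gland cells. For the Cd3-positive tumor cells, 3 counts would stand at 7.81 CPM. The gland UMIs lay in few cells, with Calca in 8 of the 127 and Il5 in fewer. Among the 38 tumor cells, 3 positive cells would be a share of 7.89%. The zeros of Il5 and Calca therefore do not show a lower share of positive cells. Furin at 49.5 against 187 CPM and Tnfsf8 at 31.2 against 179 CPM were lower in the tumor cells, while Cxcr6, at 107 against 146 CPM with overlapping intervals, was near the gland level. With 1 library each, tumor and library cannot be told apart.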

How the data were processed

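The authors deposited whole-number UMI counts per gene and cell, not normalized, for 13774 genes and 2806 cells. The build mm10, Seurat, STAR 2.5.1b and Cell Ranger 2.0.2 are named, per the submitters' processing notes; how the cells were chosen for the table is not given in the sources used here, and other cells of these libraries were not analysed, so shares are of the table's cells. Cells named "control" were taken as normal gland, on the word alone. The library depth was 5228289 UMIs (normal gland, at least 1157 per cell) and 16444540 UMIs (tumor, at least 6376 per cell).

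UMIs were summed over the cells of a group and scaled to CPM, with exact Poisson intervals. Shares have exact Clopper-Pearson intervals, and ratios have the same interval conditional on both sums (Python 3.11.15, scipy 1.17.1). A sum of 0 was set to 3 counts for a bound. No test is possible with 1 library. Named genes are the 12 (6 for Cd3-free against other T cells) whose interval lies farthest from 1 on each side. Ribosomal, mitochondrial, hemoglobin, immunoglobulin and rule genes were left out. Any gene of the 24 lists could be named too. Tmem176a is outside these lists and was looked up in addition, as were Tmem176b and Serpinb1a, whose values are not given. Scrublet (scanpy 1.11.5) called 3 of 1806 cells, none selected, and no cell was removed. The cells and lists were chosen with earlier results of these data known. Gene symbols were matched to RefSeq for 12859 of 13774 genes. Alternatives were another selection limit, cell filters, doublet calls, thinning to 1500 UMIs, other minimum sums, another scaling, and leaving out cells. A gate for type 17 cells is not reported here.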

Additional observations from a re-analysis of the deposited data

How the results depend on the processing

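Each group was 1 library, so the counts below compare cells of that library. No paired analysis was possible because each group has 1 library. Numbers are genes higher and lower in Cd3-positive than Cd3-free cells, then in Cd3-positive than other T cells, then in Cd3-free than other T cells; the reported counts were 119 and 151, 112 and 54, and 284 and 208. With at least 3 UMIs of the selecting genes (66 and 18 cells) the counts that moved by over 1.5 times were 23 and 26, then 186 and 100, then 54 lower. With cells thinned to 1500 UMIs they were 29 and 47, 62 and 26, and 116 and 63. With no Lyz2 UMI allowed they were 77 higher in the first and 133 lower in the last. A minimum sum of 25 UMIs gave 192 and 272, 228 and 116, and 489 higher; 100 UMIs gave 53 and 84, 46 and 16, and 149 and 128. Without the richest cell of each gene they were 80 lower in the first and 156 higher in the last. Without the cells of other types, an alternative added after seeing the data, the Cd3-free share was 14.8% (21.6% reported) and the counts 26 and 70, then 60 lower in the last. A higher minimum compares fewer genes; the cause of the other moves was not tested. No direction reversed. The 60 named genes did not all have a value under each alternative (31 without cells of other types, 34 with at least 3 UMIs, 29 thinned, 37 at a minimum of 100, 46 without the richest cell). Of the values there were, 682 kept their call and 5 did not: Cd53 (log2 ratio 0.58 with at least 3 UMIs, 0.99 without other types), Ifi27l2a (0.84 thinned, 0.79 by per-cell means) and Gsn against other T cells (-0.21 without other types). T-cell receptor constant-region genes are not analysed here, so the alternative using them was not run. Sums of few cells limit the precision of the Cd3-free values most.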
